A study of Rattus norvegicus with 6 samples.

Results

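The genes described here mark the identity of GABAergic interneurons, the inhibitory neurons of the cerebral cortex. They are Gad1, Gad2, Slc32a1, Dlx1, Dlx2, Dlx5, Lhx6 and Reln, and their probe sets were taken by the gene symbol of the array's platform annotation. This gave 8 probe sets of 31042 that are not array controls, for 6 of the 8 genes, where the array names 14217 genes in all. Dlx2 and Lhx6 have no probe set under their symbol in that annotation and were not analysed here. Of the 8 probe sets, 5 passed the filter on dim signals described further on, 1 each for Gad1, Slc32a1, Dlx1, Dlx5 and Reln.

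Rat cortical cells in primary culture received either an expression vector for Math2 or a control vector, and 3 arrays were made of each group. Math2, today named Neurod6, is a transcription factor of the basic helix-loop-helix (bHLH) family known from excitatory projection neurons. All 6 samples also carried an expression vector for a low-affinity nerve growth factor receptor without its cytoplasmic part, and this surface tag served to separate the transfected cells magnetically after 24 h. The labels give neither the age of the animals nor what the replicate numbers stand for, the cells are a mixture of types, and the spread behind the p-values is that between these arrays, which may be technical. The study set out to find genes on which Math2 acts.

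GABAergic interneurons of the cortex are born mostly in the ganglionic eminences of the ventral forebrain and migrate into the cortex, whereas the excitatory neurons that express Neurod6 arise within the cortex itself. Dlx homeodomain factors act early in that ventral lineage, and Lhx6, a LIM homeodomain factor, acts later in the part of it that comes from the medial ganglionic eminence. The 2 glutamate decarboxylases, Gad1 and Gad2, make GABA from glutamate, and Slc32a1 loads it into synaptic vesicles. Reln encodes reelin, a secreted glycoprotein that guides neuronal layering and is made by Cajal-Retzius cells and by some interneurons.

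The windows around the start sites of Gad1, Dlx1 and Reln are shown because these are members with signals above the median on every array and because Math2 belongs to a factor family that binds E-boxes, the motif CANNTG. The sequences are RefSeq's on the build GRCr8, from 250 bases before to 50 bases after the start, 5′ to 3′ along the gene, with each E-box in capitals. The Gad1 window is chr3:75777202-75777501 on the plus strand, the Dlx1 window is chr3:76763614-76763913 on the plus strand, and the Reln window is chr4:13628318-13628617 on the plus strand.
Gad1: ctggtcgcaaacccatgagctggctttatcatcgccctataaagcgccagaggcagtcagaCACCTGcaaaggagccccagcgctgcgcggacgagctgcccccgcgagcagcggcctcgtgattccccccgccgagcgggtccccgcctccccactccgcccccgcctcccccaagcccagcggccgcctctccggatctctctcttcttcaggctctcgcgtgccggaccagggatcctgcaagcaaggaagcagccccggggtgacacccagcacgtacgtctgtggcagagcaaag
Dlx1: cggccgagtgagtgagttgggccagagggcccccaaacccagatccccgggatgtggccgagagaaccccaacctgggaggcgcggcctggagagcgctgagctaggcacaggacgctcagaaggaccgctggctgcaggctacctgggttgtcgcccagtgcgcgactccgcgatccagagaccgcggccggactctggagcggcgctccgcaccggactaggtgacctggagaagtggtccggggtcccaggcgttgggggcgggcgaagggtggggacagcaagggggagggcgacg
Reln: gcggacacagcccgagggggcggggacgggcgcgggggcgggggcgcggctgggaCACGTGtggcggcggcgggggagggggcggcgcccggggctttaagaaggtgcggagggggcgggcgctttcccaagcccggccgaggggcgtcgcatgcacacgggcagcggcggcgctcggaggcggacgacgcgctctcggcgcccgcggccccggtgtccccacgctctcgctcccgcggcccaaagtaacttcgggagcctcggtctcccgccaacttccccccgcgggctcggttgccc
The Gad1 window holds 1 E-box, CACCTG, and the Reln window holds 1, CACGTG, while the letters CANNTG do not occur in the Dlx1 window. CANNTG reads the same on both strands, and 1 motif was searched. Of the 6 members with a window in the table, 3 hold an E-box, the third being Lhx6, against 72.1% of 33469 windows of the same length. The 3 printed windows are rich in G and C, at 67.7% for Gad1, 70.3% for Dlx1 and 79.0% for Reln, against a median of 51.7% over all windows. A match is a description of these letters and no binding site.

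The values are linear MAS5 signals, 1 per probe set and array. Array medians ran from 102 to 120. Signals of different probe sets are not comparable as transcript amounts, so as a mark of brightness each signal is set only against the median of its array. Sums over marker lists, given further on, are compared only between arrays, and bright probe sets weigh most in them. Hybridization spike-ins had geometric mean signals of 3875 to 6773 on the Math2 arrays and 1893 to 2566 on the control arrays, and the 3' to 5' signal ratio of Gapdh, a measure of transcript completeness, was 6.0 to 8.48 on the Math2 arrays and 3.74 to 13.8 on the control arrays. The part of these differences in the results was not tested. In a mixed culture, fewer cells of a type and less RNA per cell cannot be told apart.

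None of the 5 tested members differed between Math2 and control cells beyond the spread between arrays, in a fit that does not pair them. With the replicate number as a block, the lowest unadjusted p of limma were 0.059 for Dlx5 and 0.070 for Reln. Their adjusted p in that fit were 0.663 and 0.675. The enzyme and early factor genes Gad1 and Dlx1 were bright in both groups, Dlx5 and Reln were of medium brightness, Slc32a1 lay near the array median and Gad2 below it. Limma with Benjamini-Hochberg adjustment called 0 of the 5 tested probe sets at an adjusted p of 0.05, and over all 18625 tested probe sets it called 0%. At an unadjusted p under 0.05 the count was 0 of 5, against 3.19% of all tested probe sets. The groups overlapped for 5 of 5 tested members, whereas 8% of all tested probe sets had groups that did not overlap. By log2 difference, 1 of the 5 genes was higher and 4 were lower, and the median log2 difference was -0.23, beside -0.031 over all tested probe sets.

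**Figure D1:**
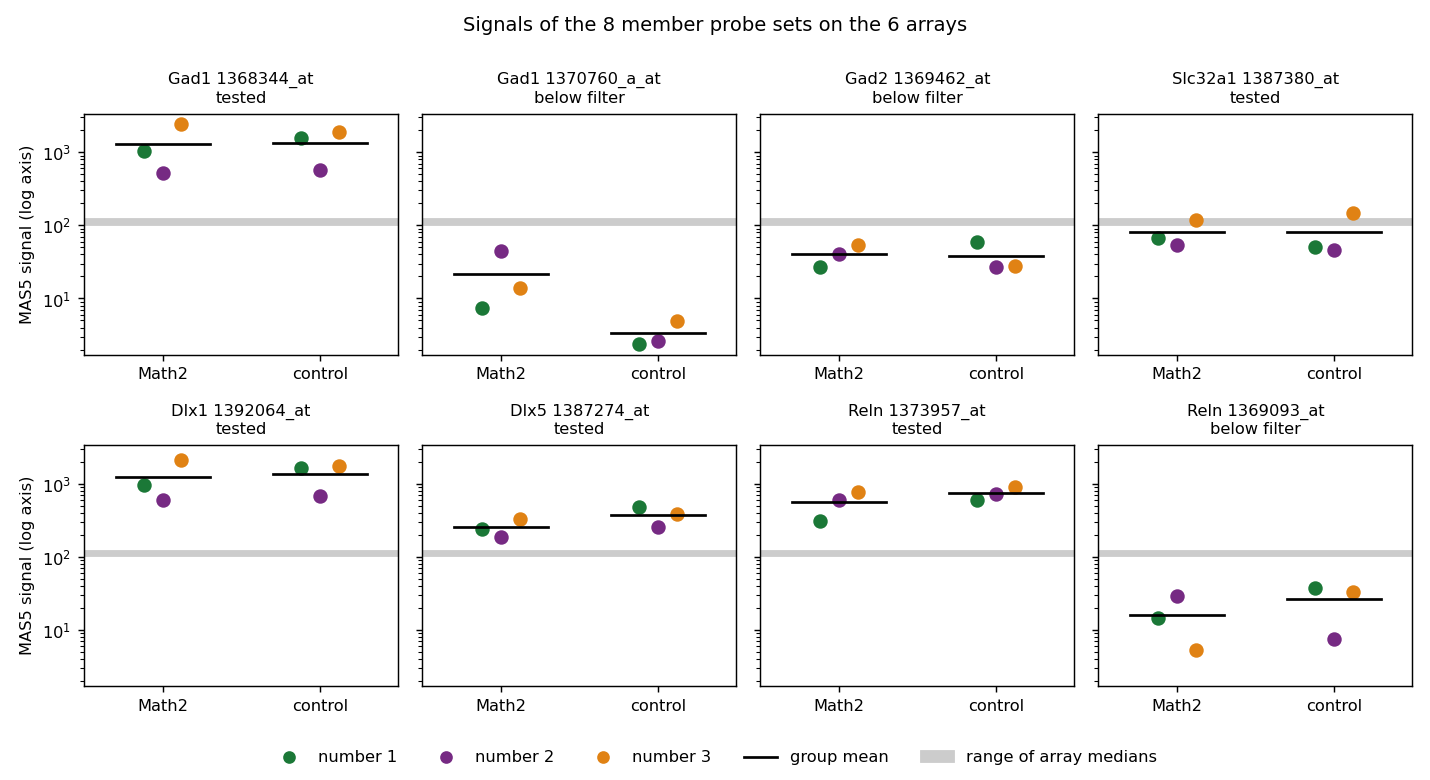
MAS5 signal (log axis) of each of the 8 member probe sets on the 3 Math2 arrays (left) and the 3 control arrays (right). Colours mark the replicate number, bars the group means and the grey band the range of the 6 array medians, 102 to 120. The groups overlap for each tested probe set.

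Gad1, glutamate decarboxylase 67, makes most of the GABA of the cell body. Its bright probe set 1368344_at had signals of 1036, 514 and 2397 on Math2 arrays 1, 2 and 3, against 1554, 566 and 1897 on control arrays 1, 2 and 3. The Math2 group held both the highest and the lowest array, and the control values lay between them. The means were 1316 ± 972 in Math2 cells and 1339 ± 691 in control cells (SD, n = 3 each). The log2 difference was -0.13 (SE 0.559; limma adjusted p = 1.00; exact permutation p = 0.9, where 0.1 is the smallest possible). On the fold scale this is 0.915 with a 95% interval of 0.388 to 2.16, which includes a change of 2-fold in either direction. With the replicate number as a block, the 95% interval was 0.65 to 1.29, which does not include it, and limma did not call the gene (adjusted p = 0.947). Signals were 4.29 to 22.1 times the array median.

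The other Gad1 probe set, 1370760_a_at, was dim throughout. It had signals of 7.37, 44.0 and 13.7 on Math2 arrays 1, 2 and 3, against 2.41, 2.60 and 4.97 on control arrays 1, 2 and 3. The groups did not overlap and every Math2 array was higher, but the highest signal was 0.368 times its array median. It did not pass the filter and was not tested, and its log2 difference of 1.24 depends on the constant added before the logarithm. The 2 probe sets of the gene thus disagree in sign, and the bright one carries the signal above the array median.

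Gad2, glutamate decarboxylase 65, supplies GABA at nerve endings. Its probe set 1369462_at had signals of 27.4, 40.9 and 54.4 on Math2 arrays 1, 2 and 3, against 58.4, 27.0 and 27.7 on control arrays 1, 2 and 3. These lie below the median of every array, at 0.230 to 0.573 times it, and the groups overlap. The probe set did not pass the filter (log2 difference 0.13, untested). No detection calls were used here, so whether it lay above background is unknown.

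Slc32a1, the vesicular GABA transporter, had signals of 67.6, 54.6 and 118 on Math2 arrays 1, 2 and 3, against 50.8, 45.6 and 146 on control arrays 1, 2 and 3. Both arrays with number 3 were the highest and the only ones above their array median. The means were 80.1 ± 33.6 in Math2 cells and 80.9 ± 56.6 in control cells (SD, n = 3 each). The log2 difference was 0.099 (SE 0.493; limma adjusted p = 1.00; exact permutation p = 0.8), or 1.07-fold with a 95% interval of 0.503 to 2.28. With the replicate number as a block, the 95% interval of the fold was 0.607 to 1.89, and limma did not call the gene (adjusted p = 0.98). Slc32a1 was the only tested member with a positive log2 difference. Its mean linear signal was slightly lower in Math2 cells, so mean and log2 difference disagree in sign. Without control array 3 every Math2 value lay above the control values, and the log2 difference was 0.59, and without Math2 array 3 it was -0.19. How many of all probe sets separate with that array left out was not counted.

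Dlx1 encodes a homeodomain factor of ventral forebrain progenitors that helps to activate Gad1 in mice. Its probe set 1392064_at had signals of 958, 602 and 2107 on Math2 arrays 1, 2 and 3, against 1650, 673 and 1756 on control arrays 1, 2 and 3. As for Gad1, Math2 array 3 was the highest and Math2 array 2 the lowest of the 6. The means were 1222 ± 786 in Math2 cells and 1360 ± 597 in control cells (SD, n = 3 each). The log2 difference was -0.23 (SE 0.477; limma adjusted p = 1.00; exact permutation p = 0.9), or 0.855-fold with a 95% interval of 0.411 to 1.78. With the replicate number as a block, the 95% interval of the Dlx1 fold was 0.601 to 1.22, and limma did not call the gene (adjusted p = 0.879). For both Gad1 and Dlx1 the sign turned when single arrays were left out. For Gad1 the log2 difference was 0.41 without Math2 array 2, 0.065 without control array 1 and 0.21 without control array 3. For Dlx1, leaving out Math2 array 2 gave 0.18, and leaving out control array 3 gave 0.018. Without Math2 array 3 the difference kept its sign, at -0.70 for Gad1 and -0.71 for Dlx1.

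Dlx5 is a homeodomain factor of the same lineage, expressed after Dlx1 and Dlx2 in the mouse, and lies beside Dlx6 in the rat genome. Its probe set 1387274_at had signals of 242, 190 and 325 on Math2 arrays 1, 2 and 3, against 482, 257 and 392 on control arrays 1, 2 and 3. Math2 arrays 1 and 2 were the lowest of the 6, and Math2 array 3 lay among the control values. The means were 252 ± 68.4 in Math2 cells and 377 ± 114 in control cells (SD, n = 3 each). The log2 difference of -0.55 was the largest of the tested members (SE 0.34; limma adjusted p = 1.00; exact permutation p = 0.2), or 0.682-fold with a 95% interval of 0.404 to 1.15. Within numbered pairs 1, 2 and 3 it was -0.98, -0.42 and -0.26. Without control array 2 or without Math2 array 3 the groups no longer overlapped, at log2 differences of -0.80 and -0.75. Neither setting passed in limma (adjusted p = 0.9999 and 0.851). How many of all probe sets separate in these settings was not counted.

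Reln had signals of 309, 605 and 782 on Math2 arrays 1, 2 and 3 for probe set 1373957_at, against 593, 733 and 913 on control arrays 1, 2 and 3. Math2 array 1 was the lowest of the 6 and control array 3 the highest, and the groups overlapped. The means were 565 ± 239 in Math2 cells and 746 ± 160 in control cells (SD, n = 3 each). The log2 difference was -0.47 (SE 0.358; limma adjusted p = 1.00; exact permutation p = 0.5), or 0.721-fold with a 95% interval of 0.416 to 1.25. Pair 1 carried most of it, with log2 differences of -0.92, -0.27 and -0.22 in pairs 1, 2 and 3, and without Math2 array 1 the log2 difference was -0.095. The other Reln probe set, 1369093_at, had signals of 14.6, 28.8 and 5.25 on Math2 arrays 1, 2 and 3, against 37.7, 7.63 and 33.2 on control arrays 1, 2 and 3. It lay below every array median and was not tested.

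**Figure D2:**
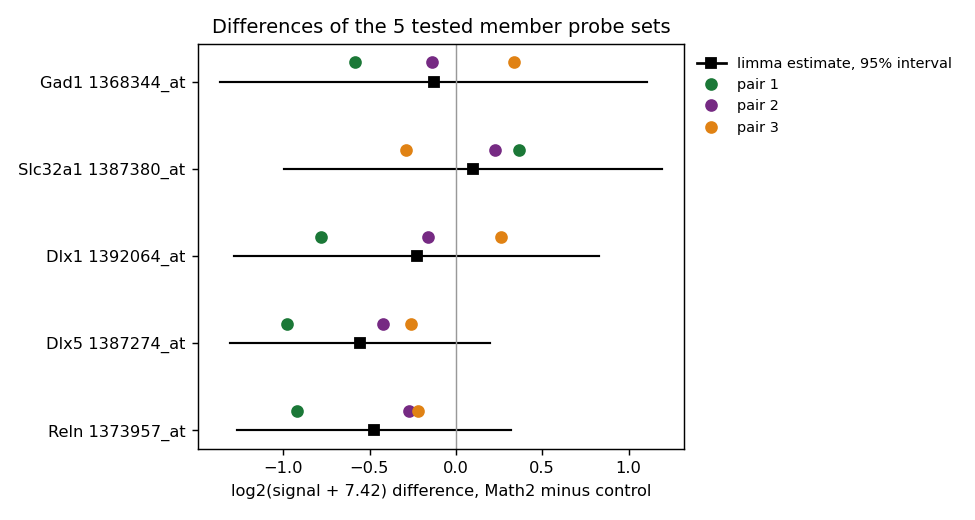
Log2 differences, Math2 minus control, of the 5 tested member probe sets. Black squares and lines are the limma estimate and its 95% interval, and coloured points are the differences within the numbered pairs. Each interval includes 0, and Dlx5 and Reln lie below 0 in 3 of 3 pairs.

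Counted by numbered pair, 2 of the 5 tested members, Dlx5 and Reln, were lower in Math2 cells in 3 of 3 pairs, against 15.2% of all tested probe sets, and 0 were higher in 3 of 3 pairs, against 13.1%. Gad1 and Dlx1 were lower in pairs 1 and 2 and higher in pair 3, with log2 differences in pair 3 of 0.34 for Gad1 and 0.26 for Dlx1. Slc32a1 ran the other way, higher in pairs 1 and 2 and lower by 0.29 on the log2 scale in pair 3.

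For Gad1, Slc32a1 and Dlx1, the spread between replicate numbers was much larger than that between the groups, while for Dlx5 and Reln the groups held a larger share of the spread than for those 3 genes. The mean Gad1 signal of the 2 arrays with number 3 was 2147, which is 3.97 times the 540 of the arrays with number 2. The same ratio was 3.03 for Dlx1, 2.64 for Slc32a1, 1.61 for Dlx5 and 1.27 for Reln. Split by sums of squares of the log2 signal, replicate number took 94.4% of the spread of Gad1, 93.3% of Slc32a1, 87.9% of Dlx1, 66.3% of Reln and 48.2% of Dlx5. The group, Math2 or control, took 0.59%, 0.74%, 2.63%, 23.1% and 39.6% of the spread of these genes in the same order. Over all tested probe sets the medians were 55.5% for number and 9.74% for group. These shares are a description without a test, and number has 2 degrees of freedom where group has 1.

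**Figure D3:**
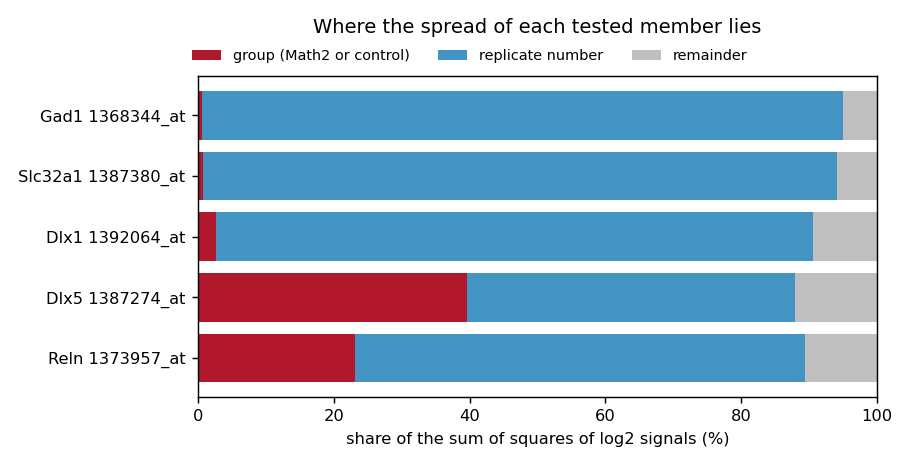
Share of the sum of squares of the log2 signal, in percent, that lies between Math2 and control (red), between replicate numbers (blue) and in the remainder (grey), for the 5 tested member probe sets. Number holds 94.4% for Gad1 and 48.2% for Dlx5.

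Gad1 and Dlx1 placed the 6 arrays in one order, with Math2 array 3 highest, then control array 3, control array 1, Math2 array 1, control array 2 and Math2 array 2. Their log2 signals correlated at 0.992 over the 6 arrays. Gad1 correlated at 0.766 with Dlx5, at 0.759 with Slc32a1 and at 0.271 with Reln, and Reln correlated at no more than 0.426 with any other tested member. These values share arrays and groups and describe likeness only. Of all tested probe sets, 0.838% had the array order of Gad1. Among them was Neurod6, the gene of the transfected factor, with signals of 312, 167 and 1546 on Math2 arrays 1, 2 and 3, against 386, 207 and 973 on control arrays 1, 2 and 3. Where its probes lie relative to the transfected sequence is not known from the labels, so it does not check them.

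Summed signals of neuronal, astrocyte and other marker lists also differed between the numbers. The summed signal of 10 pan-neuronal genes was 6941, 6854 and 18169 on Math2 arrays 1, 2 and 3, against 8881, 6063 and 13860 on control arrays 1, 2 and 3. Both arrays with number 3 were highest. The sum over 11 excitatory neuron genes was 4210, 2460 and 8895 on Math2 arrays 1, 2 and 3, against 3696, 2339 and 5572 on control arrays 1, 2 and 3, which follows the same split. The sum was also higher in Math2 cells in 3 of 3 pairs. Bcl11b alone gave 5131 of it on Math2 array 3 and 2982 on control array 3. Of the 8 excitatory neuron genes tested, 7 were higher and 1 lower in Math2 cells (median log2 difference 0.54), 0 were called by limma, and the groups did not overlap for 1, against 8% of all tested probe sets. The pan-neuronal list had 6 higher and 2 lower (median 0.097), with 0 called. The sum over 9 astrocyte genes was lowest on the arrays with number 3, at 39254, 35931 and 24199 on Math2 arrays 1, 2 and 3, against 34094, 35451 and 27130 on control arrays 1, 2 and 3. Of its 8 tested genes, 3 were higher and 5 lower (median log2 difference -0.045, or -0.18 with quantile normalization), with 0 called. The microglial sum did not follow the numbers. The 8 microglial genes summed to 273, 242 and 204 on Math2 arrays 1, 2 and 3, against 286, 263 and 324 on control arrays 1, 2 and 3, and each lay below the median of every array. The 8 genes of the oligodendrocyte lineage summed to 6976, 10049 and 10146 on Math2 arrays 1, 2 and 3, against 9364, 6351 and 11083 on control arrays 1, 2 and 3. Here too both arrays with number 3 were highest, though Math2 array 2 lay close to Math2 array 3. The 7 fibroblast genes summed to 7145, 5753 and 7779 on Math2 arrays 1, 2 and 3. On control arrays 1, 2 and 3 they summed to 7610, 6068 and 9535. The 6 endothelial genes summed to 314, 342 and 698 on Math2 arrays 1, 2 and 3. On control arrays 1, 2 and 3 they summed to 450, 440 and 828. Both arrays with number 3 were the highest for these 2 lists as well, so highest sums on number 3 were not limited to neuronal lists. Flt1 alone gave 563 of the endothelial sum on Math2 array 3 and 674 on control array 3. Of the 6 endothelial genes, 5 lay below the median of every array, so that sum describes mainly Flt1. The part of these cell types in the values of the interneuron genes was not tested.

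**Figure D4:**
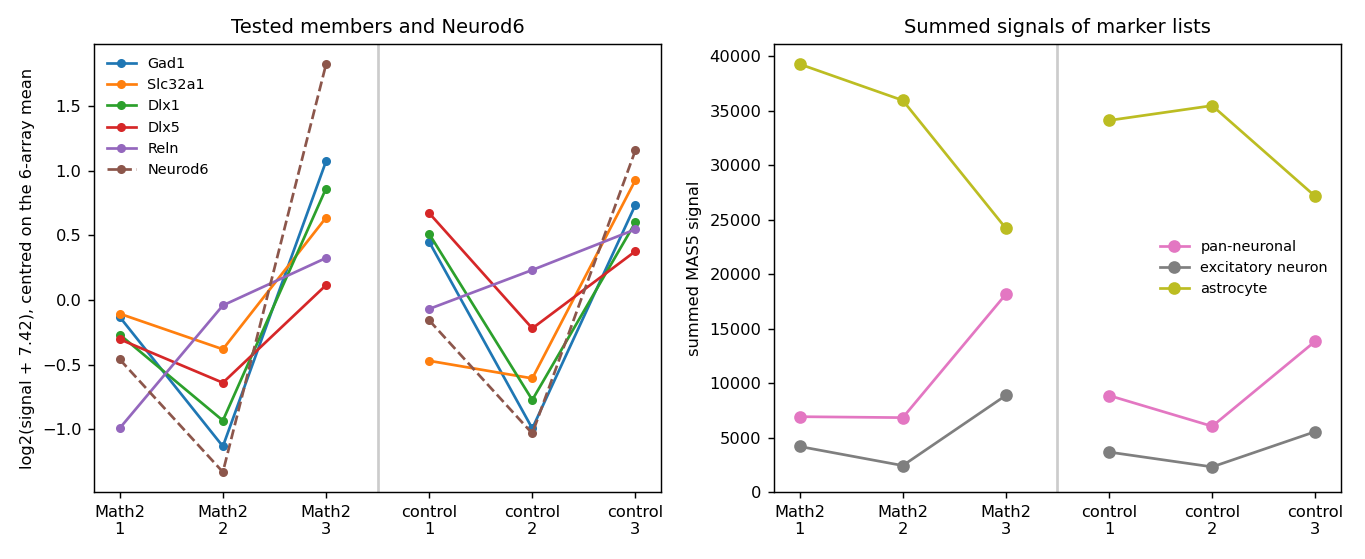
Left, log2 signals of the 5 tested members and of Neurod6 on each array, centred on the mean of the 6 arrays. Right, summed signals of pan-neuronal, excitatory neuron and astrocyte marker lists. Lines only join the points of 1 gene or list within a group. The arrays with number 3 are the highest for Neurod6 and for both neuronal lists in each group and the lowest for the astrocyte list.

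By the fixed rule, the 5 probe sets of other genes whose pattern over the 6 arrays was most like the mean of the tested members were those of Klhl12 (r = 0.999), Zcchc14 (0.997), Tmem178b (0.989), Tshz2 (0.989) and Wdr47 (0.988). Klhl12 encodes an adaptor of a ubiquitin ligase and Tshz2 a zinc finger factor. These are the highest values among 13748 probe sets compared over only 6 arrays, and 316 of those probe sets reached an r of 0.9.

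Other markers bear on whether interneurons were present. Npy, a neuropeptide of interneurons, had a mean signal of 1243 ± 260 in Math2 cells and 1300 ± 369 in control cells (SD, n = 3 each). Sst, the somatostatin gene, had 182 ± 47.4 in Math2 cells and 182 ± 30.9 in control cells. Both means lay above every array median. Of 23 subtype genes measured, 10 lay below the median of every array. Among these were Pvalb, with means of 14.4 in Math2 and 19.5 in control cells, and Vip, with 26.0 and 35.6. Among the interneuron markers Gad1, Dlx1 and Npy were thus bright, and Gad2, Pvalb and Vip were dim. Whether interneurons were present was not tested.

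Of the 14 interneuron subtype genes tested, 2 were higher and 12 lower in Math2 cells, and 0 were called by limma. Their median log2 difference was -0.096, beside -0.031 over all tested probe sets. How many of all tested probe sets were lower was not counted, so the counts of higher and lower genes in the lists have no share beside them. Cnr1, the cannabinoid receptor of cholecystokinin interneurons and other neurons, had 1486 ± 1029 in Math2 cells and 755 ± 250 in control cells (log2 difference 0.81, SE 0.445). Penk, the enkephalin precursor, had 560 ± 114 in Math2 cells and 728 ± 135 in control cells (log2 difference -0.38). Kcnc1, a fast potassium channel, had a log2 difference of -0.43, and Ackr3, a chemokine receptor of migrating interneurons, of 0.33. The groups overlapped for each of the 14, whereas 8% of all tested probe sets had groups that did not overlap.

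Of the other interneuron transcription factors, 14 of 24 were measured and 11 tested. There, 7 were higher and 4 lower, the median log2 difference was 0.062, and 0 were called. Prox1, a homeodomain factor of caudally derived interneurons and of other cells, had 316 ± 133 in Math2 cells and 196 ± 50.2 in control cells (log2 difference 0.63, SE 0.367; limma adjusted p = 1.00), and it was the 1 of 11 whose groups did not overlap, a share near the 8% of all tested probe sets. The lowest Prox1 signal in Math2 cells, 229.95 on array 2, barely exceeded the highest in control cells, 229.76 on array 1. Npas3, a bHLH-PAS factor, had a log2 difference of -0.29, the zinc finger factor Tshz1 of 0.26 and the nuclear receptor Nr2f2 of -0.16.

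Genes that take up, break down or supply the precursor of GABA were tested for 7 of 12 listed. Of these, 3 were higher and 4 lower (median log2 difference -0.12), and 0 were called. Abat, the enzyme that degrades GABA, had 117 ± 48.6 in Math2 cells and 191 ± 6.92 in control cells (log2 difference -0.76, SE 0.375; limma adjusted p = 1.00). Slc38a3, a glutamine transporter, had 44.6 ± 13.0 in Math2 cells and 98.3 ± 24.6 in control cells (log2 difference -1.03, SE 0.389; limma adjusted p = 1.00), with both means below every array median. Those 2 of the 7 tested had groups that did not overlap, against 8% of all tested probe sets, and each was lower in 3 of 3 pairs, against 15.2%. Aldh5a1, which acts after Abat, had a log2 difference of -0.35 and the amino acid transporter Slc38a2 of 0.093, which was -0.026 with quantile normalization.

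In the reelin pathway, 11 of 13 listed genes were tested, 6 were higher and 5 lower, and the median log2 difference was 0.023 with 0 called. Vldlr, a reelin receptor, had 1092 ± 371 in Math2 cells and 788 ± 67.4 in control cells (log2 difference 0.42, SE 0.283). Fyn, a kinase that phosphorylates the adaptor Dab1, had 5451 ± 1229 in Math2 cells and 4092 ± 653 in control cells (log2 difference 0.40, SE 0.225). The adaptor Crkl had a log2 difference of -0.39 and was the 1 of 11 tested without overlap, near the 8% of all tested probe sets. The integrin Itga3 had a log2 difference of -0.44. Of the genes listed for Cajal-Retzius cells, 2 were tested, and their log2 differences were -0.091 for the chemokine receptor Cxcr4 and -0.017 for the homeodomain factor Emx2, whose sign turned to 0.047 with quantile normalization. Lhx1 and Lhx5, also listed for these cells, did not pass the filter, and Tp73, listed too, was not measured under its symbol.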

How the data were processed

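Total RNA of the selected cells (50 ng per sample) was amplified and labelled in 2 cycles and hybridized to Affymetrix Rat Genome 230 2.0 arrays, per the labels' protocols. The deposited table gives 1 linear signal intensity per probe set and array, which the authors made with MAS5 per the submitters' processing notes, which name no version or settings. The mean of each array without its highest and lowest 2% was 500, so no further scaling was applied. The members and lists were chosen with earlier results of these data known.

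Signals were transformed to log2(signal + 7.42), the constant being the 10th percentile of all values, which understates the differences of dim probe sets. After removal of 57 control probe sets, those in the upper 60% by mean log2 signal (6.07 or more) entered the test, 18625 of 31042. The groups were then set against each other in limma (version 3.58.1, R 4.3.3) by lmFit and eBayes with a trend on intensity. P-values are two-sided and were adjusted by Benjamini-Hochberg across every tested probe set, and 0.05 was the threshold. The fit was tested on simulated data. Single values had an exact two-sided permutation test. Precision is limited by having 3 arrays in each group.

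In lists the brightest probe set stood for a gene, and up to 4 tested genes with the smallest p were named per list. Npy, Sst, Pvalb and Vip were named in addition, for their brightness only. To check whether replicate numbers pair the samples, array deviations from their group mean were correlated between the groups, giving 0.326, 0.476 and 0.372 for numbers 1, 2 and 3. Each exceeds 0.1, so the numbers were taken as pairs, a choice that comes from the data. Between unlike numbers the correlations ran from -0.46 to 0.104, and the highest, Math2 array 3 with control array 1, also exceeds 0.1. Alternatives were the replicate block, other normalizations, constants and filters, no intensity trend, and leaving out arrays. In the platform annotation 20826 probe sets carry 1 gene symbol, 436 carry several and 9780 are unnamed, and matching to RefSeq genes of GRCr8 changed 0 symbols.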

Additional observations from a re-analysis of the deposited data

How the results depend on the processing

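No member probe set was called under any of the 18 alternatives run, which were the replicate block, quantile normalization with and without that block, median centring, pseudocounts of 1 and 32, no filter, a filter at the 60th percentile, no intensity trend, each of 6 arrays left out, and each of 3 numbered pairs left out with the block. The lowest adjusted p of limma among them was 0.532, for Dlx5 without both arrays of number 3 and with the replicate block. With the replicate block alone the adjusted p ran from 0.663 for Dlx5 to 0.98 for Slc32a1, and the block changed no call. It narrowed the 95% interval of the Gad1 log2 difference to -0.62 to 0.37, that of Dlx5 to -1.13 to 0.026 and that of Reln (1373957_at) to -0.99 to 0.045. Dlx5 and Reln (1373957_at) kept a negative log2 difference in every alternative, at -0.80 to -0.34 and -0.75 to -0.095 with arrays or pairs left out. Over the same settings Gad1 (1368344_at) ran from -0.70 to 0.41, Dlx1 from -0.71 to 0.18 and Slc32a1 from -0.19 to 0.59, so that their signs depended on which arrays were used. Without numbered pair 1 and with the replicate block their log2 differences were 0.099 for Gad1, 0.051 for Dlx1 and -0.033 for Slc32a1, and the cause was not tested. The median log2 difference of the members ran from -0.71 to 0.18. The count of members without overlap was 0 to 1 with arrays or pairs left out, with Dlx5 (lower) as that member in 4 settings and Slc32a1 (higher) in 1, and it was 1 without a filter, where the dim Gad1 probe set 1370760_a_at entered. The share of all probe sets without overlap was counted only in the main setting, at 8%. Groups of fewer arrays separate more easily, so these counts cannot be read against that share. The log2 difference of that probe set was 2.08 with a pseudocount of 1 and 0.55 with a pseudocount of 32. The alternatives that leave out an array with no block leave 2 arrays in a group. Slc32a1 was not tested with the stricter filter or without both arrays of number 3, because it then lay below the filter. Among the gene lists, the astrocyte median was -0.045, and -0.18 with quantile normalization.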
